A study of Mus musculus with 11 samples.

Results

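The vascular endothelial growth factor (VEGF) genes were examined in RNA sequenced from the ventricles of 11 male mice. The 9 genes of the set were taken by name: the ligands Vegfa, Vegfb, Vegfc and Pgf, the receptor tyrosine kinases Kdr, Flt1 and Flt4, and the co-receptors Nrp1 and Nrp2. They are 9 of the 22608 genes counted, and all 9 passed the filter on low counts that left 11319 genes for testing. CD mice carry a hemizygous complete deletion of the interval on chromosome 5 that corresponds to the one lost in Williams-Beuren syndrome, and WT littermates were the controls. JZL184, an inhibitor of the enzyme monoacylglycerol lipase, which degrades the endocannabinoid 2-arachidonoylglycerol, was given at 8 mg/kg for 10 days. The 4 groups were WT VEH (2 mice), WT JZL184 (3 mice), CD VEH (3 mice) and CD JZL184 (3 mice), all aged 8 to 16 weeks and on a C57BL/6J background after 9 generations of backcross. VEH stands for the vehicle, and one field of the labels calls those mice untreated. The CD line models the deletion in every cell of the animal, so that an effect of the deletion within the heart and one from elsewhere in the body cannot be told apart.

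VEGF ligands are secreted proteins that act on the endothelium, the cell layer that lines blood and lymphatic vessels. In the heart, muscle cells are a main source of VEGF-A and VEGF-B, whereas the receptors are made chiefly by endothelial cells. VEGF-A signals through KDR, which drives endothelial growth and permeability, while FLT1 binds VEGF-A, VEGF-B and placental growth factor (Pgf) and acts largely as a decoy. VEGF-C acts on FLT4, the receptor of lymphatic endothelium, and the neuropilins NRP1 and NRP2 hold ligand and receptor together.

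The upstream sequences of the ligand and the receptors that the results turn on are shown so that the start sites of genes with opposite changes can be set side by side. Each holds the 250 bases before the start site on the strand of the gene, from RefSeq on GRCm38.p6, and capitals mark exact matches, on either strand, to any of 6 short motifs. The motifs were the hypoxia response cores ACGTG and GCGTG, the ETS cores CGGAAG and AGGAAG, the GATA core GATAA and the GC box GGGCGG. Matches of different motifs may share bases.
Vegfa, chr17:46032378-46032627, minus strand: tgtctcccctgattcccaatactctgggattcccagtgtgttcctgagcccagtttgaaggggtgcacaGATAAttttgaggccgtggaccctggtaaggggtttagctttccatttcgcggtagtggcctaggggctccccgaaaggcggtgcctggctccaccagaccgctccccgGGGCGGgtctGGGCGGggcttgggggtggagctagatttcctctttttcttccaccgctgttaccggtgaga
Kdr, chr5:75978456-75978705, minus strand: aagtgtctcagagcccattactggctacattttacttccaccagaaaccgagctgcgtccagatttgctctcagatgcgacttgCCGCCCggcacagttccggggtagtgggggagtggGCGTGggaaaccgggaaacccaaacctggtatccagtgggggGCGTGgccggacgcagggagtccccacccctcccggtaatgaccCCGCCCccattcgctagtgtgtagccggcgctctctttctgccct
Flt1, chr5:147726012-147726261, minus strand: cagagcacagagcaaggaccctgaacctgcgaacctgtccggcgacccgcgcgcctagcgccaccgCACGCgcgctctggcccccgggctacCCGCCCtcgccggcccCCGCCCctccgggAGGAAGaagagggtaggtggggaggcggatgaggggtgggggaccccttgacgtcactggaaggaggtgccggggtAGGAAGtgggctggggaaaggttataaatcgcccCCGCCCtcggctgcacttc
The Vegfa sequence held 1 GATAA and 2 GGGCGG, that of Kdr 2 GCGTG and 2 GGGCGG, and that of Flt1 1 GCGTG, 2 AGGAAG and 3 GGGCGG. Among 32841 promoters of the same length, GGGCGG was present in 32.7%, AGGAAG in 29.5%, GCGTG in 28.2%, GATAA in 22.6%, ACGTG in 16.6% and CGGAAG in 13.6%. RefSeq holds a further start site of Vegfa, and the 250 bases before it (chr17:46025164-46025413, minus strand, not shown) held 1 ACGTG, 1 GCGTG and 1 GGGCGG. These matches are a description of the letters, and no match says only that the letters are not in the window.

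On GRCm38, in the GENCODE release 21 annotation, the ligand genes lie at chr17:46016993-46032369 (Vegfa, ENSMUSG00000023951.16), chr19:6982473-6987651 (Vegfb, ENSMUSG00000024962.13), chr8:54077606-54187096 (Vegfc, ENSMUSG00000031520.6) and chr12:85166635-85177790 (Pgf, ENSMUSG00000004791.6). The receptor genes lie at chr5:75932827-75978458 (Kdr, ENSMUSG00000062960.10), chr5:147561604-147726011 (Flt1, ENSMUSG00000029648.13), chr11:49609263-49652739 (Flt4, ENSMUSG00000020357.3), chr8:128358604-128503363 (Nrp1, ENSMUSG00000025810.9) and chr1:62703285-62818695 (Nrp2, ENSMUSG00000025969.15). Kdr and Flt1 share chromosome 5 with the deletion. They are 58.3 Mb and 12.2 Mb outside it.

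Between 69660232 and 92251443 counts were summed per mouse, and 3 counts corresponded to 0.0305 to 0.0433 CPM, the counts of a gene scaled to the library size. Gtf2i, a transcription factor gene inside the deletion, was at 126 CPM in WT VEH and 54.0 CPM in CD VEH, and Baz1b, another gene of the interval, was at 70.5 and 25.9 CPM. The share of counts from mitochondrial genes was 39.4 to 41.2% in WT VEH and 36.4 to 40.1% in CD JZL184, against 43.5 to 44.7% in CD VEH and 45.0 to 46.6% in WT JZL184. Fold-changes also followed transcript length. In CD VEH against WT VEH the median log2 fold-change was 0.13 among the shortest and -0.13 among the longest of 5 equal classes of tested genes, whereas in CD JZL184 against CD VEH it was -0.13 and 0.14. In WT JZL184 against WT VEH it was 0.10 and -0.12. CD VEH mouse A held 18785 CPM of hemoglobin and other red cell transcripts, against 1416 to 5498 CPM in the other mice.

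Levels of different genes were compared as CPM per kilobase (kb) of transcript, with the median length of the coding transcripts of each gene. On this scale Vegfa and Vegfb stood far above the receptors. Vegfa was at 178 CPM per kb over the 11 mice (134 to 239.9) and Vegfb at 119 CPM per kb (101 to 127), while Kdr was at 30.1, Nrp1 at 24.8 and Flt1 at 17.9 CPM per kb. Nrp2 followed at 7.98 CPM per kb, then Vegfc at 3.56, Pgf at 2.45 and Flt4 at 2.17. The ranges over mice overlapped between Kdr (24.5 to 39.9) and Nrp1 (20.4 to 30.9), between Nrp1 and Flt1 (14.3 to 22.2), and among Vegfc, Pgf and Flt4. These ranges pool 4 groups with different means. Within each mouse Kdr was above Nrp1 and Nrp1 above Flt1 in 11 of 11, without overlap in any of the 4 groups, whereas Pgf was above Flt4 in 8 of 11. With all exons joined Nrp1 was above Flt1 in 7 of 11 mice. The order of the leading ligands depended on the length used. With the longest transcript Vegfb was at 113 CPM per kb and Vegfa at 59.1, and with all exons joined they were at 90.4 and 47.6. Vegfa has 8 coding transcripts in the annotation and a median length of 1143 bases, and the estimated counts do not say which of them were present.

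**Figure D1:**
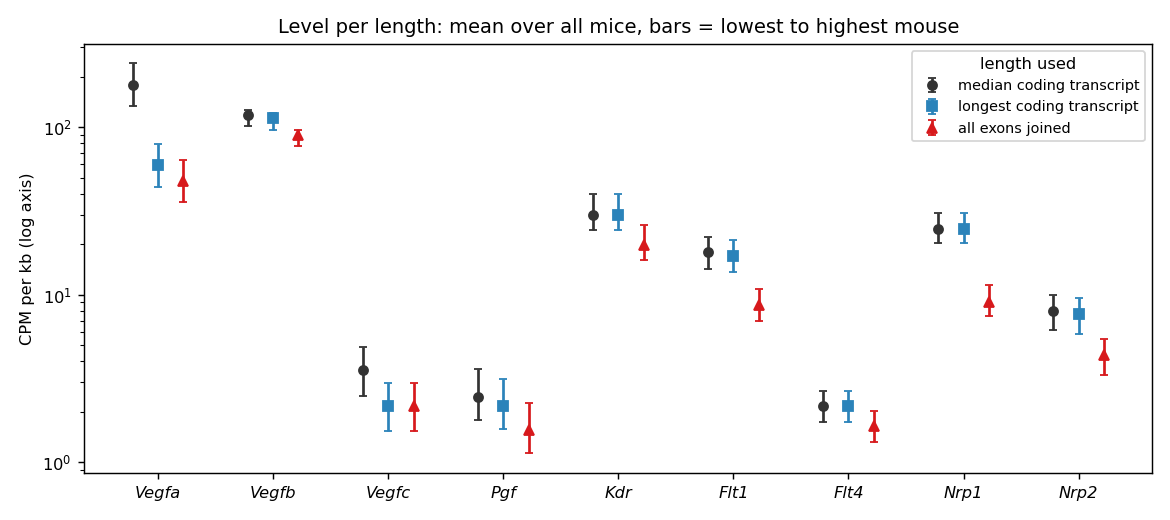
Level of each of the 9 VEGF genes in CPM per kb of transcript on a log axis; points are the mean over 11 mice, bars run from the lowest to the highest mouse, and the symbols mark 3 definitions of length. Vegfa lies above Vegfb with the median transcript only, and both lie above every receptor with all 3 lengths.

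The make-up of the ligand pool differed between groups. Vegfa made up 65.5 to 66.2% of the summed ligand level per kb in WT VEH and 52.2 to 53.3% in CD VEH, with no overlap. It was 57.6 to 61.3% in CD JZL184 and 49.7 to 64.9% in WT JZL184. With the longest transcript its share was 39.9 to 40.8% in WT VEH and 27.8 to 28.7% in CD VEH, and with all exons joined 40.1 to 40.9% and 27.9 to 28.8%. The make-up of the 3 receptors varied less with the median length, with Kdr at 56.9 to 62.5% of their sum in every mouse.

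Vegfa, the main angiogenic ligand, was highest in WT mice given the vehicle. WT VEH mice C and D had 259 and 274 CPM of it, against 161, 158 and 170.1 CPM in CD VEH, 204, 202 and 233 CPM in CD JZL184, and 225, 153 and 205 CPM in WT JZL184. Both WT VEH mice were above all others, and the 3 CD VEH mice were below every CD JZL184 mouse. WT JZL184 mouse B, at 153 CPM, was the lowest of all 11. The same mouse had the lowest summed level of the 10 cardiomyocyte markers, at 37227 CPM against 43014 to 51420.3 CPM in the other mice. It also had the highest summed levels of endothelial (2616 CPM), macrophage (299.9 CPM), fibroblast (1071 CPM) and mural cell markers (1189 CPM).

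Vegfb, a ligand of FLT1 tied to fatty acid uptake in muscle, lay at 135 and 148 CPM in WT VEH, 148, 146 and 149.7 CPM in CD VEH, 143, 152 and 150.0 CPM in CD JZL184, and 123, 155 and 146 CPM in WT JZL184. All groups overlapped.

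The remaining ligands were scarce. Vegfc, the lymphangiogenic ligand, was at 4.13 and 3.74 CPM in WT VEH, 6.42, 4.83 and 6.00 CPM in CD VEH, 4.63, 4.73 and 4.98 CPM in CD JZL184, and 5.31, 7.29 and 6.69 CPM in WT JZL184. The WT VEH mice were the lowest of all groups, and CD VEH overlapped CD JZL184. Pgf, an FLT1 ligand, was at 3.42 and 4.53 CPM in WT VEH, 5.59, 5.24 and 6.57 CPM in CD VEH, 4.05, 3.79 and 3.84 CPM in CD JZL184, and 3.27, 5.49 and 3.54 CPM in WT JZL184. Here the CD VEH mice were above WT VEH and CD JZL184, and WT JZL184 mouse B alone reached their range. Vegfd, the other FLT4 ligand, lies outside the set and did not pass the filter, with 0.539 to 1.34 CPM over the 11 mice.

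Kdr, the main signalling receptor, was at 147 and 149 CPM in WT VEH, 198, 162 and 170.2 CPM in CD VEH, 145, 165 and 158 CPM in CD JZL184, and 230.2, 200.4 and 236 CPM in WT JZL184. The WT JZL184 mice were above all others, and the CD groups overlapped each other. Flt1, the decoy receptor, was at 109 and 108 CPM in WT VEH, 121, 121 and 111 CPM in CD VEH, 102, 97.0 and 94.3 CPM in CD JZL184, and 142, 146 and 144 CPM in WT JZL184. No 2 of the 4 groups overlapped in Flt1, with CD JZL184 lowest, then WT VEH, CD VEH and WT JZL184. Flt4, the VEGF-C receptor, was at 11.7 and 12.3 CPM in WT VEH, 14.0, 15.0 and 13.4 CPM in CD VEH, 10.8, 12.3 and 11.3 CPM in CD JZL184, and 15.1, 16.7 and 16.7 CPM in WT JZL184. WT VEH and CD JZL184 shared a range, and CD VEH and then WT JZL184 lay above it.

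Nrp1, the co-receptor that strengthens VEGF-A binding to KDR, was at 79.1 and 79.4 CPM in WT VEH, 91.3, 86.7 and 90.9 CPM in CD VEH, 73.4, 82.5 and 81.7 CPM in CD JZL184, and 101, 103 and 111 CPM in WT JZL184. Its groups took the same order as those of Flt4. Nrp2, the co-receptor associated with FLT4 and with lymphatic and venous endothelium, was at 49.0 and 39.4 CPM in WT VEH, 52.2, 48.2 and 56.5 CPM in CD VEH, 42.0, 50.8 and 46.4 CPM in CD JZL184, and 54.4, 64.5 and 62.3 CPM in WT JZL184. CD VEH overlapped each of the other groups in Nrp2.

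**Figure D2:**
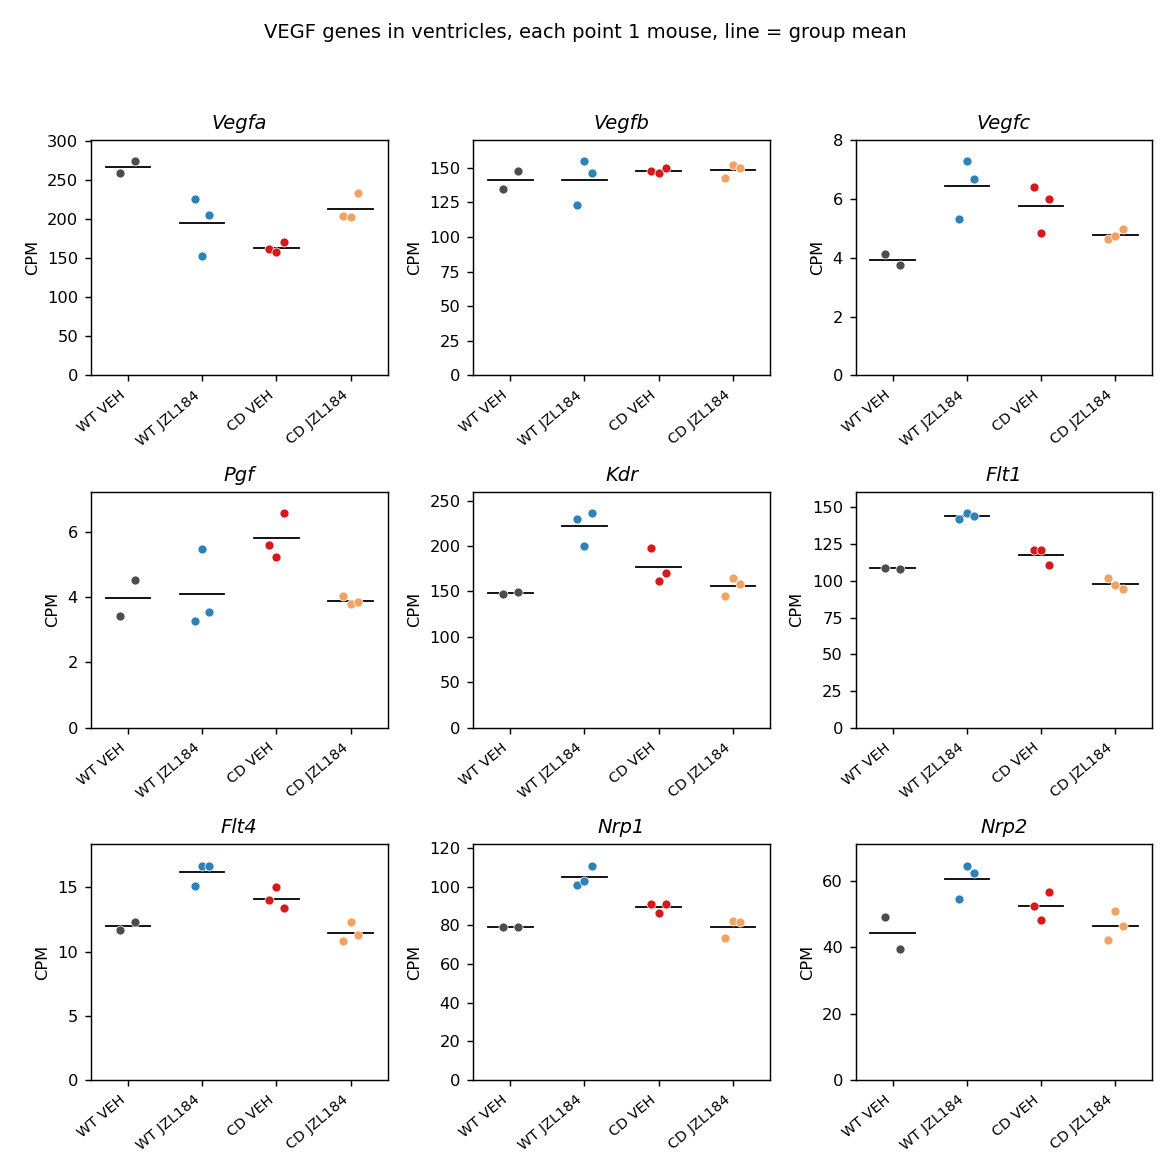
CPM (vertical axis, from 0) of the 9 VEGF genes in the 4 groups; each point is 1 mouse and the line is the group mean. Vegfa is highest in WT VEH (259 and 274 CPM), whereas all 5 receptors and co-receptors have their highest group mean in WT JZL184.

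In CD VEH against WT VEH, which shows the basal effect of the deletion, Vegfa fell and Vegfc and Flt4 rose. The 9 genes were tested with edgeR's quasi-likelihood test in a model of all 4 groups, and a gene was counted as a differentially expressed gene (DEG) at a Benjamini-Hochberg adjusted p under 0.05 over all tested genes. By this rule 3 of the 9 were DEGs, 2 higher and 1 lower, beside 30.4% of all tested genes (15.0% higher and 15.4% lower). Vegfa fell by 0.71 on the log2 scale (SE 0.13, edgeR adjusted p = 0.00452), from 267 ± 10.4 CPM (SD, n = 2) to 163 ± 6.25 CPM (SD, n = 3), and it remained a DEG under all 20 alternative settings. Vegfc rose by 0.55 (SE 0.15, edgeR adjusted p = 0.0187) and Flt4 by 0.23 (SE 0.08, edgeR adjusted p = 0.0451). The call of Vegfc was lost without either WT VEH mouse or without CD VEH mouse A or E, with a value of 0.46 where mouse A was left out (edgeR adjusted p = 0.0663). Flt4 stayed a DEG under 9 of 20 settings, with adjusted p up to 0.230.

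The other receptors were not past the threshold in CD VEH. Their log2 fold-changes were 0.26 (SE 0.10, edgeR adjusted p = 0.0667) for Kdr, 0.12 (SE 0.06, edgeR adjusted p = 0.175) for Flt1, 0.18 (SE 0.07, edgeR adjusted p = 0.0729) for Nrp1 and 0.24 (SE 0.11, edgeR adjusted p = 0.122) for Nrp2. The value of Nrp2 was 0.09 without WT VEH mouse D and 0.41 without mouse C, and that of Kdr was 0.17 without CD VEH mouse A. In CPM, 4 of the 5 receptors and co-receptors were higher in every CD VEH mouse than in both WT VEH mice, where 32.5% of all tested genes were. Pgf was at 0.54 (SE 0.20, edgeR adjusted p = 0.0611), not past the threshold either. It passed with DESeq2 (adjusted p = 0.0307), with upper quartile factors (edgeR adjusted p = 0.0498), with the CD VEH and WT VEH mice fitted alone (edgeR adjusted p = 0.0276) and without WT JZL184 mouse A or B (edgeR adjusted p = 0.0419 and 0.0122), and its value was 0.36 without WT VEH mouse C and 0.76 without mouse D. Kdr and Nrp1 passed with DESeq2 (adjusted p = 0.0364 and 0.0461) and with upper quartile factors (edgeR adjusted p = 0.0383 and 0.0351) as well. Kdr also passed without CD VEH mouse C (edgeR adjusted p = 0.0386) or WT JZL184 mouse B (0.0371), and Nrp1 with the GC content offset (edgeR adjusted p = 0.0496) and with the CD VEH and WT VEH mice fitted alone (0.0398). Vegfb differed by 0.06 (95% interval -0.11 to 0.23), and the sign of this value changed with the length and GC content offsets. The number of DEGs among the 9 depended on the settings. With an offset for gene length all 5 receptors and co-receptors passed, where 2996 of the 11319 tested genes did. Their log2 fold-changes under this offset were 0.39 for Kdr, 0.27 for Flt1, 0.37 for Flt4, 0.23 for Nrp1 and 0.39 for Nrp2. Vegfa was then at -0.81.

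In bulk tissue, fewer cells of a type and less RNA per cell cannot be told apart. Summed over 17 markers, the endothelial level was 1374 to 1419 CPM in WT VEH and 2020.1 to 2158 CPM in CD VEH, and no marker was at 0. Of these 17 markers 14 rose in CD VEH and 0 fell, and their median of 0.53 on the log2 scale stood against 0.01 over all tested genes. All 6 macrophage markers rose too (median 0.66), and 5 of 8 mural cell markers rose and 1 fell. Of the 10 cardiomyocyte markers 4 fell and 0 rose, with a median of -0.23, a summed level of 43014 to 46209 CPM in CD VEH against 51226 to 51420.3 CPM in WT VEH, and values from -1.07 for the giant sarcomere gene Ttn to 0.25 for the myosin light chain gene Myl2. The part of these markers, of the mitochondrial share and of transcript length in the VEGF results was not tested.

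In CD JZL184 against CD VEH, which shows the effect of the drug in the deletion, Vegfa rose while Pgf, Flt1, Flt4 and Nrp1 fell. These were 5 DEGs among the 9, beside 33.9% of all tested genes (16.8% higher and 17.0% lower). Vegfa rose by 0.38 (SE 0.12, edgeR adjusted p = 0.0278), to 213 ± 17.5 CPM (SD, n = 3). Leaving out CD JZL184 mouse A or E, or any of the CD VEH mice, ended this call, with adjusted p between 0.0509 and 0.110. Flt1 fell by 0.27 on the log2 scale (SE 0.06, edgeR adjusted p = 0.00608) and Flt4 fell by 0.30 (SE 0.07, edgeR adjusted p = 0.00896), both under all 20 settings.

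Nrp1 fell by 0.18 on the log2 scale in treated CD mice (SE 0.06, edgeR adjusted p = 0.0447), a call kept under 11 of 20 settings. Pgf fell by 0.57 (SE 0.18, edgeR adjusted p = 0.0280) and was kept under 15 of 20. Kdr was at -0.18 (SE 0.09, edgeR adjusted p = 0.135), Nrp2 at -0.17 (edgeR adjusted p = 0.202) and Vegfc at -0.27 (edgeR adjusted p = 0.125), none past the threshold. With the offset for gene length Kdr and Nrp2 were DEGs, both at -0.31 (edgeR adjusted p = 0.0241 and 0.0421), and without CD VEH mouse C Vegfc was a DEG at -0.37 (edgeR adjusted p = 0.0428). The value of Kdr was -0.08 and that of Vegfc -0.18 without CD VEH mouse A, and Nrp2 was at -0.10 without CD JZL184 mouse A and -0.11 without CD VEH mouse E. Vegfb was at 0.00 (95% interval -0.15 to 0.16), and its sign turned with upper quartile factors. Alongside, all 17 endothelial markers fell (median -0.44, to 1369.8 to 1474 CPM summed), all 6 macrophage markers fell, 4 of 8 mural cell markers fell and 1 rose, 3 of 7 fibroblast markers fell and 0 rose, and 3 of 10 cardiomyocyte markers rose while 1 fell. All 5 blood cell markers fell as well, with a median of -2.17 on the log2 scale, but without CD VEH mouse A 0 of them were DEGs (median -0.43, edgeR adjusted p of 0.221 to 0.481). Leaving out a CD JZL184 mouse left 0 or 1 of these calls. Their summed level was 2027 to 18785 CPM in CD VEH, highest in mouse A, and 1416 to 2189 CPM in CD JZL184, which overlapped. The part of these markers was not tested.

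In WT JZL184 against WT VEH, which shows the drug without the deletion, every receptor and co-receptor rose and Vegfa fell. Of the 9 genes 7 were DEGs, 6 higher and 1 lower, beside 29.4% of all tested genes (15.4% higher and 14.0% lower). Kdr rose by 0.59 (SE 0.10, edgeR adjusted p = 0.00340), Flt1 by 0.41 (SE 0.06, edgeR adjusted p = 0.00247), Flt4 by 0.43 (SE 0.08, edgeR adjusted p = 0.00470), Nrp1 by 0.41 (SE 0.07, edgeR adjusted p = 0.00366) and Nrp2 by 0.45 (SE 0.11, edgeR adjusted p = 0.0143). Vegfc, the scarce ligand of FLT4, rose by 0.71 (SE 0.15, edgeR adjusted p = 0.00725). Vegfa fell by 0.46 on the log2 scale (SE 0.13, edgeR adjusted p = 0.0236). It was at -0.31 without WT JZL184 mouse B (edgeR adjusted p = 0.0296).

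Leaving out a WT VEH mouse left 1 mouse in that group, and DEGs then became fewer among all tested genes as well. Without mouse C the calls of Vegfa, Vegfc and Flt4 were lost, at log2 fold-changes of -0.50, 0.78 and 0.39. Without mouse D those of Vegfa, Vegfc and Nrp2 were lost, at -0.42, 0.64 and 0.30. A model of the WT mice alone ended the call of Vegfa as well (edgeR adjusted p = 0.0939). Pgf was at 0.04 (edgeR adjusted p = 0.905) and Vegfb at -0.01 (95% interval -0.18 to 0.17), and the sign of both turned under other settings. All 17 endothelial markers (median 0.65, to 2143 to 2616 CPM summed) and all 6 macrophage markers (median 0.82) rose here as well, as did 6 of 8 mural cell markers (median 0.53) and 4 of 7 fibroblast markers (median 0.31), and 4 of 10 cardiomyocyte markers fell. Their part was not tested.

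For Vegfa, Vegfc and all receptors and co-receptors the estimated change with the drug had opposite signs in CD and WT mice, and the difference itself was tested as the interaction of genotype and JZL184. By edgeR's quasi-likelihood test 7 of the 9 genes passed, beside 51.5% of all tested genes (25.3% higher and 26.2% lower). For Vegfa the interaction was 0.84 (SE 0.18, adjusted p = 0.00232), that is, the effect of JZL184 was more positive in CD than in WT mice. It was -0.77 for Kdr (SE 0.13, adjusted p = 0.000796), -0.68 for Flt1 (SE 0.09, adjusted p = 0.000200) and -0.73 for Flt4 (SE 0.11, adjusted p = 0.000350). The co-receptors followed with -0.59 for Nrp1 (SE 0.09, adjusted p = 0.000524) and -0.62 for Nrp2 (SE 0.15, adjusted p = 0.00546), and Vegfc had -0.98 (SE 0.20, adjusted p = 0.00185). All 7 passed under each of the 19 alternatives. Pgf did not pass at -0.61 (SE 0.27, adjusted p = 0.0769), but it did without WT JZL184 mouse A, at -0.74 (adjusted p = 0.0301). It was at -0.34 without WT JZL184 mouse B.

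**Figure D3:**
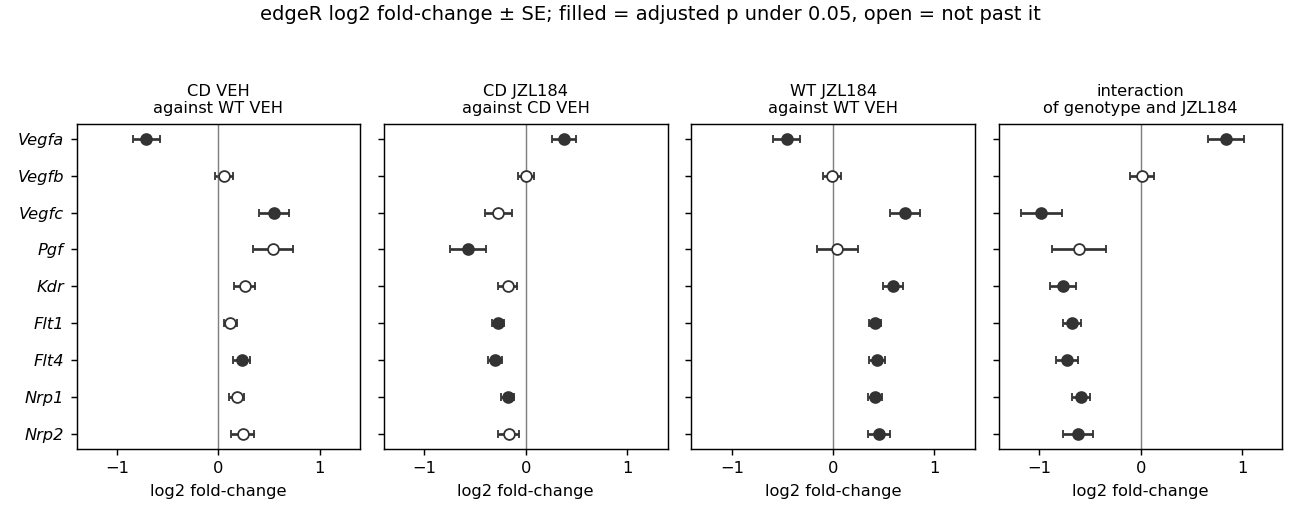
edgeR log2 fold-change (horizontal axis) of the 9 VEGF genes in 3 comparisons and the interaction; points are estimates, bars the SE, and filled points have an adjusted p under 0.05. Vegfa lies on the opposite side of 0 from the 5 receptors and co-receptors in every panel, while Vegfb stays near 0.

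Treated CD mice were also set beside both WT groups. Beside WT VEH, edgeR found 0 DEGs among the 9 genes, against 0.186% of all tested genes. By DESeq2 the count was also 0, beside 104 of the 11319 tested genes. At an unadjusted p under 0.05 it was 2, where 9.36% of all tested genes passed. Those were Vegfa at -0.33 (SE 0.13, edgeR adjusted p = 0.461) and Flt1 at -0.15 (SE 0.06, edgeR adjusted p = 0.491), and both were lower in every CD JZL184 mouse than in both WT VEH mice, where 18.8% of all tested genes were. Vegfc, at 4.63 to 4.98 CPM, was higher in every CD JZL184 mouse than in both WT VEH mice (3.74 and 4.13 CPM), where 17.8% of all tested genes were. Against WT JZL184 6 of the 9 were DEGs, all lower, beside 38.3% of all tested genes (20.1% lower). The edgeR log2 fold-changes were -0.56 for Flt1 (adjusted p = 0.000186), -0.51 for Kdr (adjusted p = 0.00177), -0.50 for Flt4 (adjusted p = 0.000942), -0.41 for Nrp1 (adjusted p = 0.00111), -0.38 for Nrp2 (adjusted p = 0.0123) and -0.43 for Vegfc (adjusted p = 0.0217). The call of Vegfc was lost without CD JZL184 mouse A or C or WT JZL184 mouse B or D, and that of Nrp2 without CD JZL184 mouse A. These comparisons share mice, CD VEH, CD JZL184 and WT VEH each entering several, so that their values are not independent of one another.

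The balance of ligand and receptor was followed as the log2 ratio of levels per kb within each mouse, as a description with no test. The ratio of Vegfa to Kdr was 3.23 ± 0.04 (SD, n = 2) in WT VEH, or 9.36 to 1. It was 2.26 ± 0.16 (SD, n = 3) in CD VEH, or 4.80 to 1, and 2.16 ± 0.18 (SD, n = 3) in WT JZL184, or 4.48 to 1. CD JZL184 lay between, at 2.82 ± 0.14 (SD, n = 3), or 7.05 to 1, and did not overlap any other group. The CD VEH and WT JZL184 mice overlapped. These ratios rest on the median transcript length, and in WT VEH the ratio was 3.10 to 1 with the longest transcript and 3.81 to 1 with all exons joined.

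Vegfa over Flt1 followed the same order, with 3.78 to 3.87 in WT VEH, 3.52 to 3.83 in CD JZL184, 2.92 to 3.14 in CD VEH and 2.59 to 3.19 in WT JZL184, so that here WT VEH overlapped CD JZL184. Vegfa over Nrp1 had means of 3.40 in WT VEH, 3.08 in CD JZL184 and 2.52 in both CD VEH and WT JZL184. Vegfb over Flt1 was highest in CD JZL184, at 3.03 ± 0.10 (SD, n = 3), and lowest in WT JZL184, at 2.40 ± 0.15 (SD, n = 3). Pgf stayed below Flt1 in every mouse, with means from -3.33 in WT JZL184 to -2.50 in CD VEH. Vegfc over Flt4 was 0.34 to 0.55 in WT VEH, 0.42 to 0.93 in CD VEH, 0.55 to 0.86 in WT JZL184 and 0.68 to 0.88 in CD JZL184, so that WT VEH overlapped CD VEH, met WT JZL184 and lay below CD JZL184. With the longest transcript its mean in WT VEH was -0.26. The choice of transcript length shifts a pair's ratio by the same amount in every mouse, which leaves the differences between groups as they are.

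**Figure D4:**
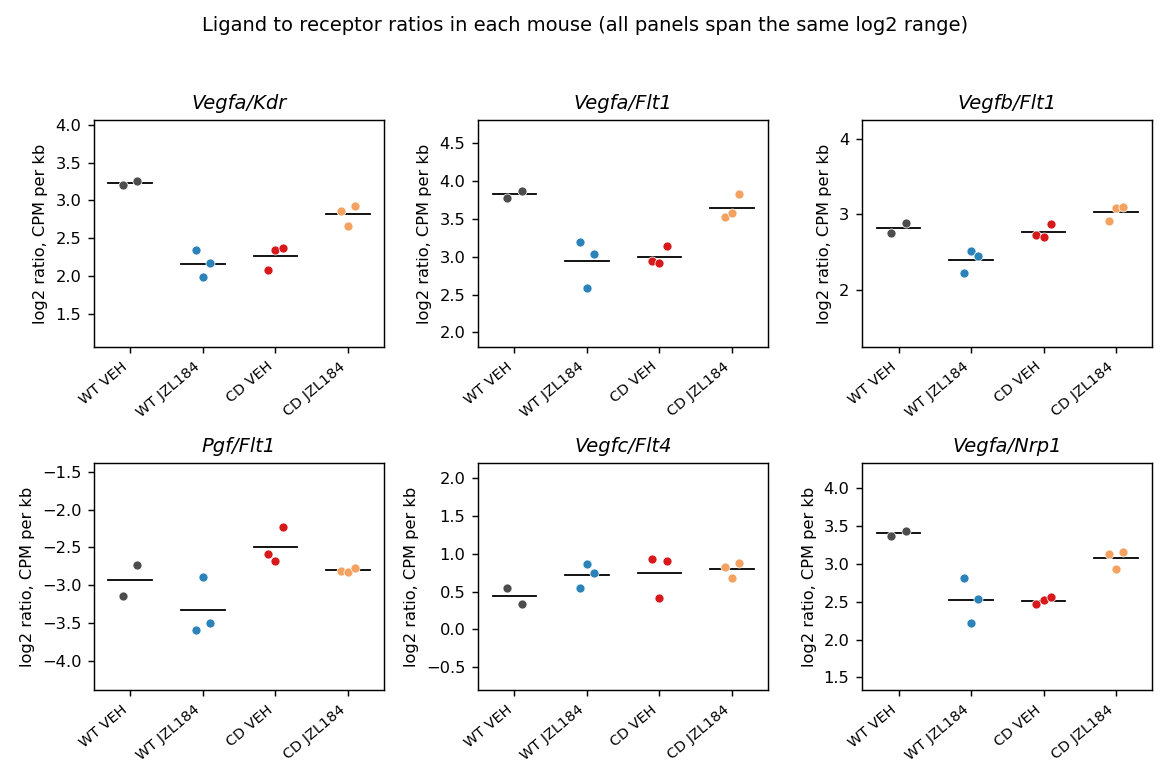
Log2 ratio of ligand to receptor in CPM per kb (vertical axis) for 6 pairs in the 4 groups; each point is 1 mouse and the line is the group mean. Vegfa/Kdr is 3.20 to 3.26 in WT VEH, 2.66 to 2.93 in CD JZL184, and at most 2.37 in every CD VEH and WT JZL184 mouse.

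The receptors were next set against the endothelial markers of the same mouse, as log2 CPM minus the mean log2 CPM of the 17 markers. That mean was 5.53 in WT VEH and 5.56 in CD JZL184, against 6.08 in CD VEH and 6.22 in WT JZL184. Any gene that rose less than this mean is lower in CD VEH and WT JZL184 than in WT VEH on this scale. Every receptor and co-receptor was, although their CPM were higher there, and so was Vegfb, at 1.62 in WT VEH, 1.13 in CD VEH and 0.92 in WT JZL184. Flt1 went from 1.23 in WT VEH to 0.80 in CD VEH and 0.95 in WT JZL184, and it was at 1.06 in CD JZL184. Nrp1 went from 0.78 to 0.41 in CD VEH and 0.50 in WT JZL184, with 0.75 in CD JZL184. The ranges of WT VEH and CD VEH were 1.20 to 1.26 and 0.63 to 0.93 in Flt1, and -0.26 to 0.11 and -0.40 to -0.34 in Nrp2. Vegfb separated as well, with 1.58 to 1.65 in WT VEH and 1.07 to 1.20 in CD VEH, so this is not particular to the receptors. How many of all tested genes separate on this scale was not counted.

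Kdr was at 1.67 in WT VEH, 1.38 in CD VEH, 1.57 in WT JZL184 and 1.73 in CD JZL184 on this scale, with WT JZL184 spread from 1.30 to 1.73 across the range of the other groups. Flt4 was at -1.94, -2.26, -2.20 and -2.04 and Nrp2 at -0.07, -0.37, -0.31 and -0.02 in the same order. Vegfa showed the widest difference, from 2.53 in WT VEH to 1.27 in CD VEH, 1.36 in WT JZL184 and 2.17 in CD JZL184. Vegfb, whose CPM overlapped in all groups, was at 1.62, 1.13, 0.92 and 1.66. Vegfc ran from -3.65 to -3.45 in WT VEH, -3.71 to -3.40 in CD VEH and -3.70 to -3.44 in WT JZL184, and CD JZL184, at -3.40 to -3.23, lay above both WT groups and met CD VEH at its lower end.

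**Figure D5:**
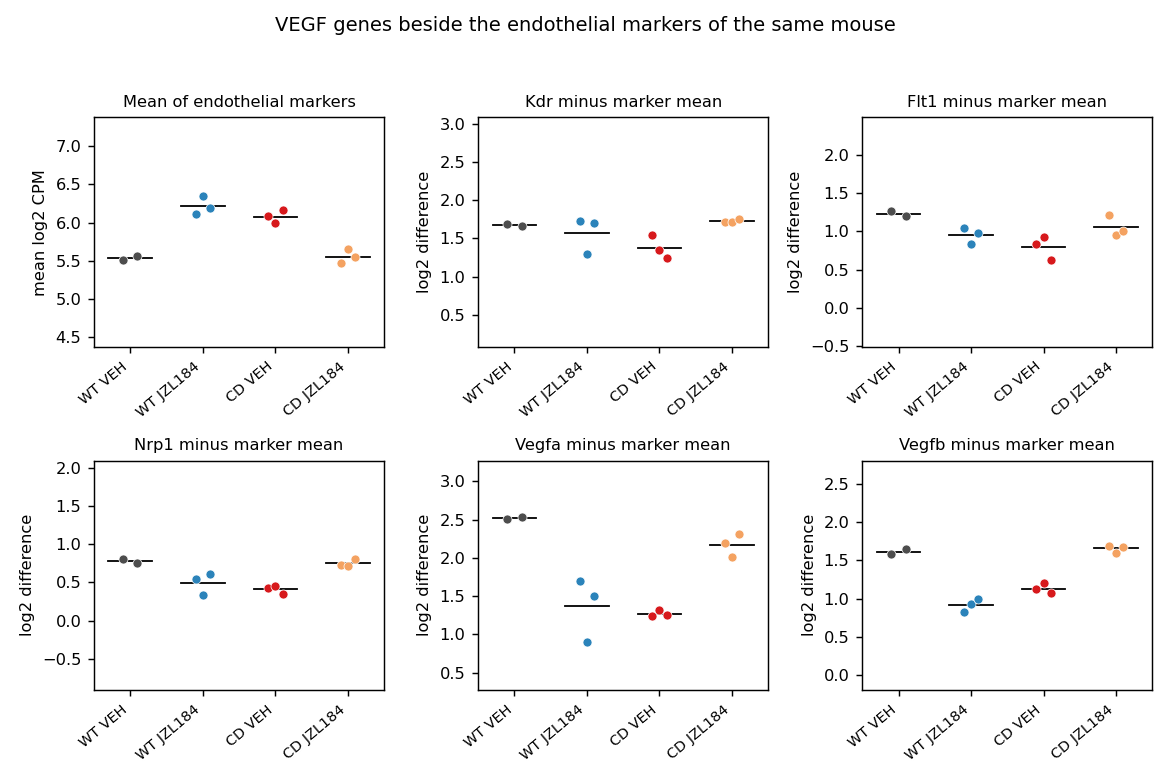
The first panel shows the mean log2 CPM of 17 endothelial markers and the others the log2 CPM of a VEGF gene minus that mean (vertical axes), in the 4 groups; each point is 1 mouse and the line is the group mean. The marker mean is higher in CD VEH and WT JZL184 (5.99 to 6.35) than in WT VEH and CD JZL184 (5.47 to 5.65), and Flt1 and Nrp1 minus that mean have their lowest group mean in CD VEH.

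The lymphatic side of the pathway was described with 6 markers, of which 4 were tested. In CD VEH 1 of these rose and 1 fell: Ccl21a, a chemokine of lymphatic endothelium, had a log2 fold-change of 0.73, and Prox1, the transcription factor that sets lymphatic identity and is also made by heart muscle cells, had -0.68. In CD JZL184 against CD VEH Prox1 rose by 0.61 (edgeR adjusted p = 0.00931), whereas Ccl21a fell by 0.58 on the log2 scale (edgeR adjusted p = 0.0274) and Lyve1, a hyaluronan receptor of lymphatic endothelium that some macrophages also carry, fell by 0.99 (edgeR adjusted p = 0.00434). With the drug in WT mice Ccl21a rose by 0.58 (edgeR adjusted p = 0.0493) and Prox1 fell by 0.49 (edgeR adjusted p = 0.0381). The summed level of the 6 markers was 80.0 to 90.1 CPM in WT VEH and 69.9 to 87.4 CPM in CD VEH. By edgeR 0 of the 3 endocardial markers were DEGs in CD VEH with WT VEH, CD JZL184 with CD VEH and WT JZL184 with WT VEH, and the count was also 0 by DESeq2 and at an unadjusted p under 0.05. Of the fibroblast markers 3 of 7 rose in CD VEH. None of the 5 blood cell markers was a DEG in CD VEH by edgeR, at a median of 1.77 on the log2 scale, with 4 at an unadjusted p under 0.05 and 0 DEGs by DESeq2, and CD VEH mouse A stood far above the other mice. Adipocyte markers were near 0, at 0.0780 to 0.979 CPM summed.

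The genes that act with the VEGF receptors were followed as lists, described by counts beside the shares of DEGs given above. Among 33 genes of signalling below the receptors, 31 were tested and in CD VEH 5 rose and 7 fell, and the median was -0.01. In CD JZL184 against CD VEH 8 rose and 6 fell, and in WT JZL184 against WT VEH 5 rose and 7 fell. Mapk3, a terminal kinase of the growth factor cascade, rose in CD VEH by 0.63 (SE 0.12, edgeR adjusted p = 0.00455), with mean levels of 26.6 CPM in WT VEH, 41.3 CPM in CD VEH, 32.7 CPM in CD JZL184 and 40.3 CPM in WT JZL184. Shb, an adaptor that binds KDR, fell by 0.62 on the log2 scale (SE 0.20, edgeR adjusted p = 0.0367) and had means of 16.1 CPM in WT VEH, 10.5 CPM in CD VEH and 15.3 CPM in CD JZL184. Pik3r1, the regulatory subunit of phosphoinositide 3-kinase, fell by 0.45 (SE 0.14, edgeR adjusted p = 0.0351), with means of 107, 78.3, 112 and 70.3 CPM. Kinase and adaptor genes thus moved in both directions. Without WT VEH mouse C none of the 3 stayed a DEG (edgeR adjusted p up to 0.222 for Pik3r1 and 0.163 for Shb over all settings), and Shb and Pik3r1 were also lost without WT VEH mouse D or CD VEH mouse A, Shb without CD VEH mouse C and Pik3r1 without CD VEH mouse E.

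Genes that endothelial cells raise on VEGF stimulation were followed with 12 genes, 9 of them tested. In CD VEH 4 rose and 1 fell (median 0.40), in CD JZL184 against CD VEH 0 rose and 3 fell, and in WT JZL184 6 rose and 0 fell. Nrarp, a Notch feedback gene of sprouting endothelium, rose in CD VEH by 0.86 (SE 0.11, edgeR adjusted p = 0.00173), from 6.85 to 12.4 CPM, and was at 7.50 CPM in CD JZL184 and 12.0 CPM in WT JZL184. Hlx, a homeobox gene, rose by 0.73 (SE 0.14, edgeR adjusted p = 0.00549), from 3.49 to 5.80 CPM. Rcan1, a feedback inhibitor of calcineurin that heart muscle also makes, went the other way and fell by 0.95 on the log2 scale (SE 0.24, edgeR adjusted p = 0.0148), from 116 to 59.8 CPM. Nrarp stayed a DEG under all 20 settings, while Hlx was lost without WT VEH mouse C (edgeR adjusted p = 0.0644) and Rcan1 without either WT VEH mouse (edgeR adjusted p up to 0.108).

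Of 14 genes that restrain or anchor the receptors, 5 rose and 1 fell in CD VEH, 1 rose and 3 fell in CD JZL184 against CD VEH, and 7 rose and 1 fell in WT JZL184. Cdh5, the endothelial cadherin that holds KDR at junctions, rose in CD VEH by 0.47 (SE 0.09, edgeR adjusted p = 0.00452), Spry4, an inhibitor of the kinase cascade, by 0.39 (SE 0.12, edgeR adjusted p = 0.0260) and Robo4, a guidance receptor of vessels, by 0.37 (SE 0.06, edgeR adjusted p = 0.00307). Among the 5 angiopoietin and Tie genes, a parallel vessel pathway, 2 rose in CD VEH: the receptors Tie1 by 0.47 (SE 0.09, edgeR adjusted p = 0.00558) and Tek by 0.39 (SE 0.08, edgeR adjusted p = 0.00593). In CD JZL184 against CD VEH 3 of the 5 fell, and in WT JZL184 3 rose. Cdh5, Robo4, Tie1 and Tek are also among the 17 endothelial markers. Robo4 stayed a DEG under all 20 settings. Cdh5, Tie1 and Tek were lost without WT VEH mouse C (edgeR adjusted p of 0.0565, 0.0641 and 0.0547), and Spry4 without either WT VEH mouse or CD VEH mouse A or E (edgeR adjusted p up to 0.157).

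Semaphorins compete with VEGF for neuropilins, and plexins are their signalling partners. Of 12 such genes 8 were tested, and in CD VEH 1 rose and 1 fell. Plxna2, a plexin, fell by 0.50 on the log2 scale (SE 0.09, edgeR adjusted p = 0.00453) and was no DEG with the offset for gene length or without WT VEH mouse C (edgeR adjusted p up to 0.0972), and Sema3g, a semaphorin of arterial endothelium, rose by 0.36 (SE 0.10, edgeR adjusted p = 0.0185), a call lost without either WT VEH mouse or CD VEH mouse E (edgeR adjusted p up to 0.113). In CD JZL184 against CD VEH 3 of the 8 rose and 0 fell, and in WT JZL184 2 rose and 1 fell.

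Oxygen-sensing genes and regulators of Vegfa were followed with 20 genes, 19 of them tested. In CD VEH 4 rose and 3 fell (median -0.06), in CD JZL184 against CD VEH 5 rose and 3 fell, and in WT JZL184 2 rose and 1 fell. Hif1a, the hypoxia-inducible factor that activates Vegfa, fell in CD VEH by 0.43 on the log2 scale (SE 0.09, edgeR adjusted p = 0.00731), with means of 58.5 CPM in WT VEH, 43.5 CPM in CD VEH, 58.7 CPM in CD JZL184 and 49.6 CPM in WT JZL184. Its target Pdk1, which diverts pyruvate from the mitochondria, fell by 0.43 (SE 0.12, edgeR adjusted p = 0.0173), with means of 142, 105, 139 and 116 CPM. Ankrd37, another hypoxia-induced gene, rose by 0.91 (SE 0.21, edgeR adjusted p = 0.0101), with means of 2.37, 4.46, 2.41 and 3.35 CPM. The DEGs of this list thus moved in both directions. Hif1a, Pdk1 and Ankrd37 lost their calls without WT VEH mouse C (edgeR adjusted p up to 0.101), Ankrd37 and Pdk1 also without mouse D, and Pdk1 also without CD VEH mouse E and with the offset for gene length.

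The genes with the profile nearest to each abundant VEGF gene were found by the root mean square (RMS) difference of log2 CPM over the 11 mice, each gene centred on its mean. For Vegfa these were Mical2 (0.0675), Frmd6 (0.0726) and Abtb2 (0.0924), where the median over all tested genes was 0.303. Mical2, which encodes an actin-oxidising enzyme, had means of 78.2 CPM in WT VEH, 50.2 CPM in CD VEH, 64.6 CPM in CD JZL184 and 58.7 CPM in WT JZL184. The nearest to Kdr were the scaffold gene Akap12 (0.0642), Rasgrp3 (0.0856) and Aoc3 (0.0859), with a median of 0.274, and Akap12 had means of 31.5, 38.9, 32.7 and 44.7 CPM. For Flt1 they were Spaar (0.0732), Rasgrp3 (0.0778) and Cyyr1 (0.0783), with a median of 0.252, so that Rasgrp3 stood in both lists. Vegfb lay nearest to Eif4a3 (0.0292), Scap (0.0372) and Nelfb (0.0400), with a median of 0.170. Within the set, the nearest to Kdr was Nrp1 (0.0958) and the nearest to Flt1 was Flt4 (0.0829), while Vegfa was 0.324 from its nearest, Vegfb.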

How the data were processed

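Estimated counts per gene and mouse were deposited as 1 table, which the authors made with Salmon 0.7.2 and tximport on an Ensembl annotation of GRCm38 without normalization. Its columns name the group and a letter, so single columns were matched to groups and not to numbered samples. Here rounded values entered the quasi-likelihood test of edgeR 4.0.16 (R 4.3.3) with TMM factors, 4 group means and no covariates. The filter was a mean log2 CPM of 1 or more, and the biological coefficient of variation was 9.13%. CPM used TMM-scaled totals. The log2 CPM set against markers had a prior count of 2. GENCODE release 21 matched 22238 of 22608 genes by identifier. Each mouse was a replicate. The scripts were tested on simulated counts. Alternatives were DESeq2 1.42.0, RLE and upper quartile factors, no filter, a minimum of 10 counts per mouse, models of the compared groups alone, gene length and GC content offsets (loess span 0.5), no mitochondrial genes, and leaving out each mouse. A block on the column letters was added after seeing the data and is not among the 20 settings counted. The VEGF genes and all lists were chosen with earlier results of these data known. Genes named from the pathway lists were up to 3 DEGs with the largest change in CD VEH against WT VEH, from the marker lists the highest and lowest where given, and the 3 nearest profiles of Vegfa, Vegfb, Kdr and Flt1.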

Additional observations from a re-analysis of the deposited data

Results flagged for a closer look

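The effect of JZL184 differed between CD and WT mice in 7 of the 9 VEGF genes by edgeR's interaction test, where 51.5% of all tested genes passed. The log2 difference, the effect in CD mice minus that in WT mice, was 0.84 for Vegfa, -0.98 for Vegfc, -0.77 for Kdr, -0.68 for Flt1, -0.73 for Flt4, -0.59 for Nrp1 and -0.62 for Nrp2. With the offset for gene length it was 1.03 for Vegfa and -0.98 for Kdr. The endothelial markers moved with it, with 17 of 17 past the interaction test in the negative direction and a median of -1.08. So did other marker lists. All 6 macrophage markers (median -1.59), 6 of 8 mural cell markers (median -0.95, with 1 positive), 4 of 7 fibroblast markers (median -0.41), 2 of 4 lymphatic markers (with 1 positive) and 1 of 3 endocardial markers passed in the negative direction. Of the 10 cardiomyocyte markers 5 passed in the positive direction, that of Vegfa, and 1 in the negative one (median 0.30). All 5 blood cell markers passed as negative (median -2.94), but 0 did without WT VEH mouse C or D, 2 without CD JZL184 mouse A and 3 without WT JZL184 mouse B, and the median was -1.30 without CD VEH mouse A. The endocardial call was lost without any one of 9 of the 11 mice. The part of these markers in the result was not tested.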

How the results depend on the processing

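In CD VEH against WT VEH the number of DEGs among the 9 genes was 3, and it was 6 with DESeq2, 6 with upper quartile factors, 7 with the gene length offset, 5 with only the compared groups and 1 to 5 with a mouse left out (1 without WT VEH mouse C or D or CD VEH mouse A or E, 5 without WT JZL184 mouse B). For CD JZL184 against CD VEH the number was 2 to 5 with a mouse left out. It was 2 without CD JZL184 mouse A or E or CD VEH mouse A or E (beside 2035 to 2447 of all tested genes). Without CD JZL184 mouse C it was 3 (beside 3013). For WT JZL184 against WT VEH it was 7 without any mouse outside WT VEH (beside 2099 to 4480). Without a WT VEH mouse some calls of that comparison were lost, as given above. Where a WT VEH mouse was left out, the lone mouse was assumed to vary like the other groups. The other alternatives left each number of DEGs within 1.5 times its value. Vegfb changed sign in CD VEH against WT VEH with the gene length (-0.04) and GC content (-0.06) offsets and spanned -0.00 to 0.13 with a mouse left out. In CD JZL184 against CD VEH it was -0.02 with upper quartile factors and -0.01 to 0.03 with a mouse left out, and in WT JZL184 against WT VEH 0.04 with upper quartile factors, 0.01 with only the compared groups and -0.08 to 0.09 with a mouse left out. Pgf in WT JZL184 against WT VEH was -0.01 with the length and -0.03 with the GC content offset, and -0.23 to 0.26 with a mouse left out. The cause was not tested.

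With the longest transcript or all exons joined, the log2 ratios in WT VEH were 1.63 and 1.93 for Vegfa over Kdr, 2.30 and 2.95 for Vegfa over Flt1, 1.81 and 2.94 for Vegfa over Nrp1, and -0.26 and 0.14 for Vegfc over Flt4. With all exons joined they were 3.46 for Vegfb over Flt1 and -2.57 for Pgf over Flt1. The columns of the table carry letters and not the replicate numbers of the labels, so that no block on those numbers could be fitted. A replicate block on the letters, chosen after seeing the data, left 3 residual degrees of freedom. The deviations of CD VEH and CD JZL184 mice of the same letter correlated at 0.04, -0.10 and -0.00. The other 5 pairs of the same letter ran from -0.25 (CD JZL184 with WT VEH mouse C) to 0.32 (CD JZL184 with WT JZL184 mouse A), and since not every pair was over 0.1 the letters were not taken to pair the mice. With this block there were 3 DEGs for the deletion in vehicle mice (beside 21.2% of all tested genes) and 4 in treated mice (10.5%). There were 4 for the drug in CD mice (34.6%) and 4 in WT mice (5.29%), and 7 for the interaction (40.2%). For the deletion in vehicle mice Vegfc lost its call and Pgf gained one. For the drug, Nrp1 lost its call in CD mice, and Vegfa, Vegfc and Nrp2 lost theirs in WT mice. Vegfc and Nrp2 lost theirs for the deletion in treated mice. Pgf in WT JZL184 against WT VEH was at -0.28. With 2 WT VEH mice, every comparison with that group rests on a spread shared with the other groups. Estimated counts per gene do not separate transcripts, and reads shared between genes were assigned by the quantifier.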
